A study of Mus musculus with 27 samples.

Results

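The genes described here are 10 direct targets of bone morphogenetic protein (BMP) signalling, followed through the differentiation of mouse embryonic stem cells toward gonadal cells. They are the Id genes *Id1*, *Id2*, *Id3* and *Id4*, the Smad genes *Smad6*, *Smad7* and *Smad9*, the membrane protein gene *Bambi*, and the homeobox genes *Msx1* and *Msx2*. They were chosen by name, not by their values, and matched by symbol to 10 of the 48795 Ensembl genes in the files. All 10 passed the low-count filter, which kept 20839 genes. RNA was sequenced from 9 groups of 3 libraries, all descended from 1 clone (clone 7) of an XY embryonic stem cell line of the strain F1:C57BL/6 x CBA. Every group carried Tesco-CFP, a fluorescent reporter driven by a Sertoli cell enhancer of *Sox9*, and R26-rtTA, which lets doxycycline switch on transgenes. The ESC group was the stem cell line itself, kept with LIF and the inhibitors PD0325901 and CHIR99021 and moved, before differentiation, to KSR (a serum replacement) with LIF. Which of these media the ESC RNA came from is not given in the sources used here. EpiSC cells had 60 h of Activin A (20 ng/ml) and bFGF (12 ng/ml) in 1% KSR. M cells, the early mesoderm stage, then had 36 h of BMP4 (10 ng/ml), bFGF (20 ng/ml) and the PI3-kinase inhibitor LY294002 (10 µM). The IM1 to IM5 groups, named for intermediate mesoderm, followed for 3.5 days, each with BMP4 (20 ng/ml) and bFGF (5 ng/ml). IM1 had nothing more. The other IM media contained retinoic acid at 100 nM. IM2 and IM5 also received Activin A at 10 ng/ml, and IM4 and IM5 the WNT agonist CHIR99021 at 0.3 µM. The iSLC group was made from IM3 cells that carried doxycycline-inducible lentiviruses for *Nr5a1* and *Dmrt1*, were moved after 24 h to a Sertoli medium, and were sorted for CFP 4 days after doxycycline was added. That medium held Activin A (50 ng/ml), EGF, FSH, FGF9, a prostaglandin and testosterone, and BMP4, bFGF and retinoic acid were not among its listed factors. BMP4 was thus at 0 in ESC, EpiSC and iSLC, at 10 ng/ml in M and at 20 ng/ml in IM1 to IM5. The dose changed together with stage, time and other factors, and these cannot be told apart.

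In GRCm38 coordinates, *Id1* (ENSMUSG00000042745) lies at chr2:152736251-152737410, *Id2* (ENSMUSG00000020644) at chr12:25093799-25097140, *Id3* (ENSMUSG00000007872) at chr4:136143497-136145755 and *Id4* (ENSMUSG00000021379) at chr13:48261228-48266026. *Smad6* (ENSMUSG00000036867) lies at chr9:63953076-64022059, *Smad7* (ENSMUSG00000025880) at chr18:75367529-75395935, *Smad9* (ENSMUSG00000027796) at chr3:54755582-54801257 and *Bambi* (ENSMUSG00000024232) at chr18:3507923-3516404. *Msx1* (ENSMUSG00000048450) lies at chr5:37820485-37824583 and *Msx2* (ENSMUSG00000021469) at chr13:53466884-53473074. *Id4* is the member whose exons overlap other genes, both on the opposite strand (2.13% of its exon bases with *A330033J07Rik* and 4.44% with *Gm49291*), and the strand setting of the counting is not given in the sources used here.

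BMP ligands bind paired serine/threonine kinase receptors, which phosphorylate Smad1, Smad5 and Smad9. These join Smad4, enter the nucleus and bind regulatory DNA of target genes. Id proteins are helix-loop-helix proteins that lack the DNA-binding region and hold E proteins and their lineage-specific partners off DNA. Smad6 and Smad7 are inhibitory Smads that feed back on the receptors, and Bambi is a pseudoreceptor that lacks a kinase domain. Msx1 and Msx2 are homeodomain repressors of transcription, well known from limb, tooth and neural crest. In the embryo, BMP4 patterns the mesoderm from its ventral and lateral side, and the gonad arises from intermediate mesoderm and the coelomic epithelium beside it.

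Smad proteins have known preferences in DNA. Smad4 binds GTCT, whose palindrome is GTCTAGAC, and the BMP Smads bind the GC-rich GGCGCC, in some targets followed by GTCT after a gap of 5 bases. These motifs and the E-box CANNTG, the site of the E proteins that Id proteins hold, were searched on both strands in RefSeq windows (GRCm38.p6) of 250 bases before to 50 bases after each RefSeq gene start. Positions are counted from that start, which is the Ensembl start for *Smad6* and *Smad9* but lies 1048 bases downstream of it, inside the Ensembl gene, for *Id2* and 112 bases upstream for *Id4*. Windows were available for 7 of the 10 genes, namely *Id2*, *Id3*, *Id4*, *Smad6*, *Smad9*, *Msx1* and *Msx2*. *Smad6* held GTCTAGAC, which starts at -4 from that start and which 0.215% of 32544 promoters hold. *Id2*, *Id4* and *Smad9* held GGCGCC, starting at -231, -148 and -51, against 11.9% of all promoters. The combined motif was in none of the 7 and in 0.0737% of all promoters. GTCT, which GTCTAGAC contains on both strands, was in 88.0% of all promoters and CANNTG in 72.3%, so their matches separate little. The windows that hold GTCTAGAC or GGCGCC are shown because their genes moved in different directions in the IM media, with the match in capitals, 5′ to 3′ on the strand of the gene. They are chr9:64022056-64022309 (minus strand) for *Smad6*, chr12:25096093-25096342 (minus) for *Id2*, chr13:48260866-48261115 (plus) for *Id4* and chr3:54755332-54755581 (plus) for *Smad9*. The match is a description of these letters and not a binding site.
Smad6: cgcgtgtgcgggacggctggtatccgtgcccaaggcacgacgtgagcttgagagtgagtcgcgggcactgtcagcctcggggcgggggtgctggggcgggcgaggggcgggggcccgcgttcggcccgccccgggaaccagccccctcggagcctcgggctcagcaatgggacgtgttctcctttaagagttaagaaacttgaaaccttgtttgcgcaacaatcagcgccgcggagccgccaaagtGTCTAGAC
Id2: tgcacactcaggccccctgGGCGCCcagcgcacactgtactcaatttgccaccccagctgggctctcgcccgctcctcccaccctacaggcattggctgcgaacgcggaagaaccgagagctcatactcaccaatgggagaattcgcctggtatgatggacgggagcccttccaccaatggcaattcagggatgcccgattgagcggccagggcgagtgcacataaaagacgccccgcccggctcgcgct
Id4: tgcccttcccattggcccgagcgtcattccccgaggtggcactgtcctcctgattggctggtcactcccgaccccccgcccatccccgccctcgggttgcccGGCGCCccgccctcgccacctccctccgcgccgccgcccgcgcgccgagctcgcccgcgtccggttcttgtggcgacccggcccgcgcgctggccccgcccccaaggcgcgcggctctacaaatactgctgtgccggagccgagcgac
Smad9: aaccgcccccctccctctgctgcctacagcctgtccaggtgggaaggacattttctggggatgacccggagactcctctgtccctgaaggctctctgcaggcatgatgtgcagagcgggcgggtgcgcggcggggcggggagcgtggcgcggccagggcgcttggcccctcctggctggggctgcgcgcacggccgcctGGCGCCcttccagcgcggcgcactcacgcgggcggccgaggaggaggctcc

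Totals of expected counts, which are RSEM's estimates of the fragments of each gene, were 35923040 to 84876603 per library, and no pair of replicates agreed within counting noise (chi-square per degree of freedom 3.63 to 53.8). The libraries of a group are described as biological replicates in the study, but whether they came from separate cultures is not given in the sources used here, so p-values measure the spread between these libraries. Stage markers were high where the labels place them for ESC, EpiSC and M: *Klf4* averaged 43.6 TPM (a level scaled for transcript length and library size) in ESC, *Fgf5* 119 TPM in EpiSC and *T* 502 TPM in M. The mesoderm genes were also present in EpiSC, where *T* averaged 238 TPM. The 4 markers of intermediate mesoderm did not agree. *Wt1* averaged 149 TPM in IM3 and 116 in IM4, but 29.7 in IM2, 18.1 in IM5 and 6.39 in IM1. Its mean was 11.9 TPM in ESC and 116 in iSLC. *Pax2* was at or under 0.24 TPM in every IM library. *Lhx1* averaged 56.5 TPM in M and 0.443 to 3.44 in the IM groups. *Osr1* averaged 0.98 to 4.74 TPM in the IM groups and 9.89 in iSLC. The iSLC libraries held 93.8 TPM of *Nr5a1* and 213 TPM of *Dmrt1*, the 2 transgenes, whose viral and endogenous transcripts cannot be told apart in these values, and *Amh*, the hormone that marks Sertoli cells, stayed at 0.47 to 0.61 TPM. Libraries also fell into 2 sets that no label gives. The summed TPM of 6 red blood cell genes was 11.7 to 91.0 in ESC, M, IM3 and IM4 and 1.57 to 4.54 in EpiSC, IM1, IM2, IM5 and iSLC, and the slope of expression on GC content was -0.53 to 0.02 in the former and -0.09 to 0.56 in the latter. Among the comparisons of 2 groups, IM4 with IM3 and IM5 with IM2 stay within a set and the others cross it. The part of this split in their results was not tested beyond the GC adjustment, given where it changed a call or sign. Within-set values are given only for media with BMP4 against media without it.

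All 10 genes differed among the 9 groups (edgeR quasi-likelihood F test over all groups, adjusted p of 1.06e-15 for *Smad7* and lower for the other 9), but so did 96.4% of the genes tested. Their patterns were not the same. *Smad6*, *Id1*, *Id3* and *Bambi* were low in ESC and EpiSC and high from M on, *Id2*, *Id4* and *Smad9* came up later, in the IM groups, and *Msx1* and *Msx2* were highest in M and nearly gone in iSLC. *Smad7* moved least, with a ratio of the highest to the lowest group mean of 2.43 on the TPM scale, against 9.35 to 312 for the other 9. Over the 9 group means, the Pearson correlation of each of the 45 pairs of members was above 0, from 0.43 to 0.96 (median 0.74). These 9 points share libraries, scaling and stages, so the correlations describe the pattern only. In bulk RNA, fewer cells of a type and less RNA per cell cannot be told apart.

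**Figure D1:**
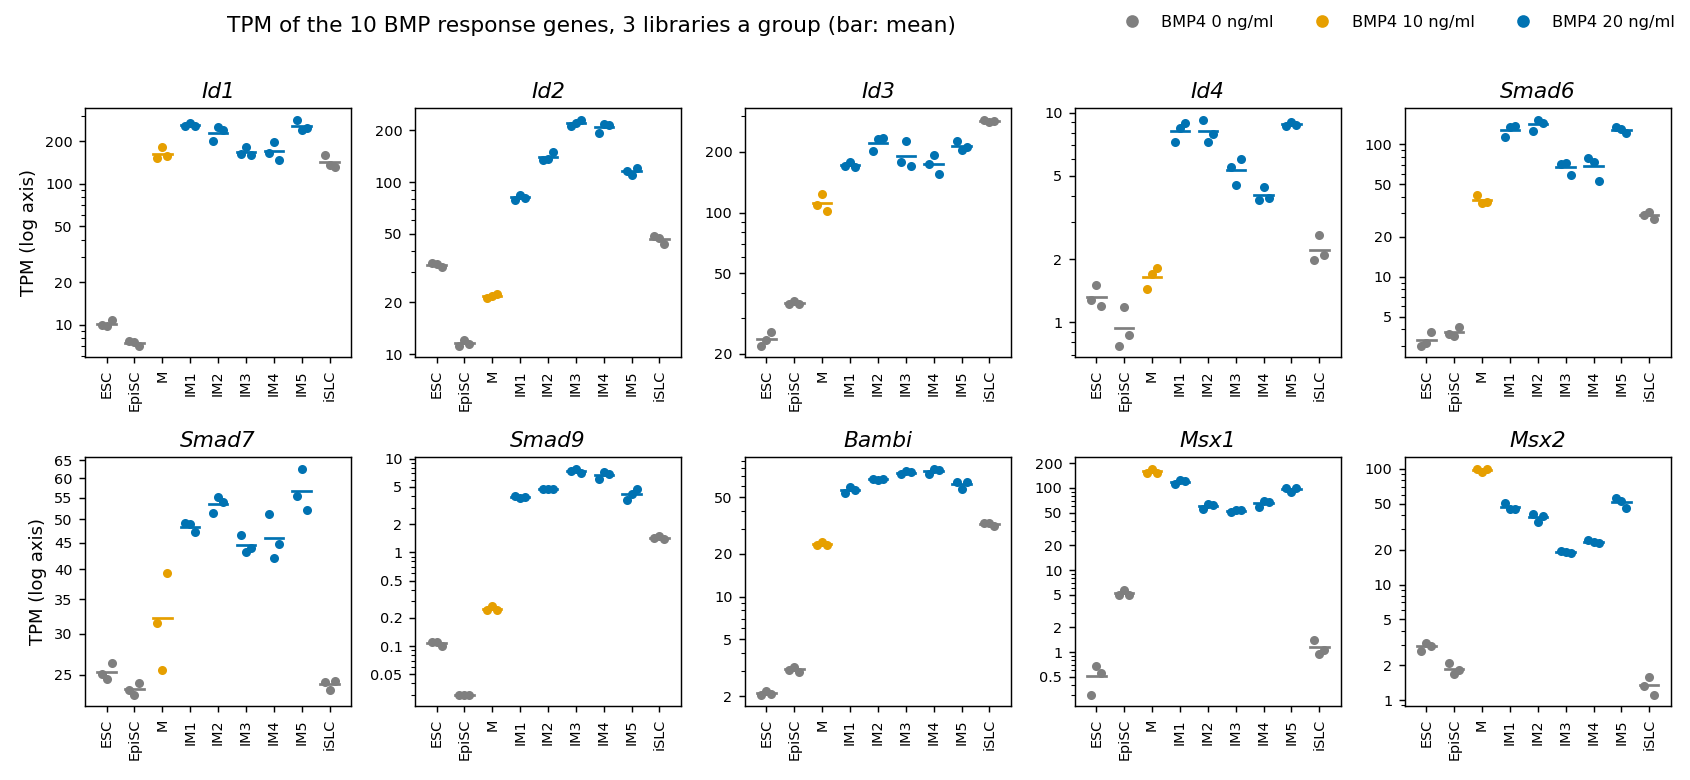
TPM of each gene in every library (points) with the group mean (bar), on log axes with a separate range for each gene, coloured by the BMP4 dose of the medium. *Smad6*, *Msx1* and *Msx2* lie higher in every library with BMP4 (10 or 20 ng/ml) than in every library without it, while *Id1*, *Id3* and *Bambi* stay well above their ESC and EpiSC levels in iSLC.

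*Id1* was at 9.91, 9.76 and 10.8 TPM in ESC and at 7.65, 7.52 and 7.05 in EpiSC. It reached 152, 181 and 156 TPM in M, 257, 268 and 258 in IM1, 200.4, 251 and 239 in IM2, and finally 284, 238 and 247 in IM5. In IM3 it stood at 162, 181 and 159 TPM, in IM4 at 164, 196 and 147, and in iSLC at 158, 135 and 132. The M library ranges thus met those of IM3 and of iSLC, and the IM groups split into a higher trio of IM1, IM5 and IM2, whose neighbours overlapped, and a lower pair of IM4 and IM3, which overlapped too. *Id3* rose along a similar path, from 21.8, 23.4 and 25.5 TPM in ESC and 35.1, 36.5 and 35.2 in EpiSC to 109, 124 and 101 in M. Its IM libraries overlapped from group to group and spanned 156 to 233 TPM. Unlike *Id1*, it was highest in iSLC, at 289, 282 and 286 TPM, above every library of any other group.

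*Id2* followed another order. Its ESC libraries, at 33.6, 33.4 and 32.0 TPM, lay above EpiSC (11.2, 12.0 and 11.5) and M (21.2, 21.9 and 22.2). It was at 79.2, 84.2 and 81.0 TPM in IM1 and highest in IM3 (212, 219 and 231) and IM4 (193, 219 and 216), with IM2 (134, 137 and 149) and IM5 (115, 110 and 121) between them and IM1. The groups did not overlap, apart from IM3 and IM4, and iSLC stood at 48.5, 47.4 and 43.4 TPM. *Id4* was the scarcest Id gene in every group, at 0.77 to 1.81 TPM in ESC, EpiSC and M. It reached 7.26, 8.41 and 8.93 TPM in IM1, 9.25, 7.27 and 7.90 in IM2 and 8.64, 9.03 and 8.70 in IM5, and it was lower in IM3 (5.50, 4.53 and 6.00), IM4 (3.84, 4.43 and 3.90) and iSLC (1.97, 2.60 and 2.08). *Id2* and *Id4* were therefore at opposite ends within the IM groups, *Id2* highest where retinoic acid was given without Activin A and *Id4* lowest there.

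Summed on the TPM scale, the 4 Id genes went from 68.1 ± 1.43 (SD, n = 3) in ESC and 55.5 ± 1.54 in EpiSC to 298 ± 26.7 in M and 523 ± 14.4 in IM1. The sums in IM2 to IM5 were 557 to 601 (group means), with overlapping libraries, and iSLC held 476 ± 18.7. What changed among the IM groups was the makeup. *Id1* gave 49.9% ± 0.17 of the sum in IM1, 43.0% ± 1.5 in IM5, 38.2% ± 1.7 in IM2, 30.3% ± 2.0 in IM4 and 28.7% ± 0.50 in IM3 (SD, n = 3), and *Id2* gave 15.6% ± 0.16, 19.5% ± 1.2, 23.3% ± 1.4, 37.7% ± 3.1 and 37.9% ± 3.0 in the same order. *Id3* stayed at 31.3% to 37.1% there and rose to 60.1% ± 1.8 in iSLC.

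**Figure D2:**
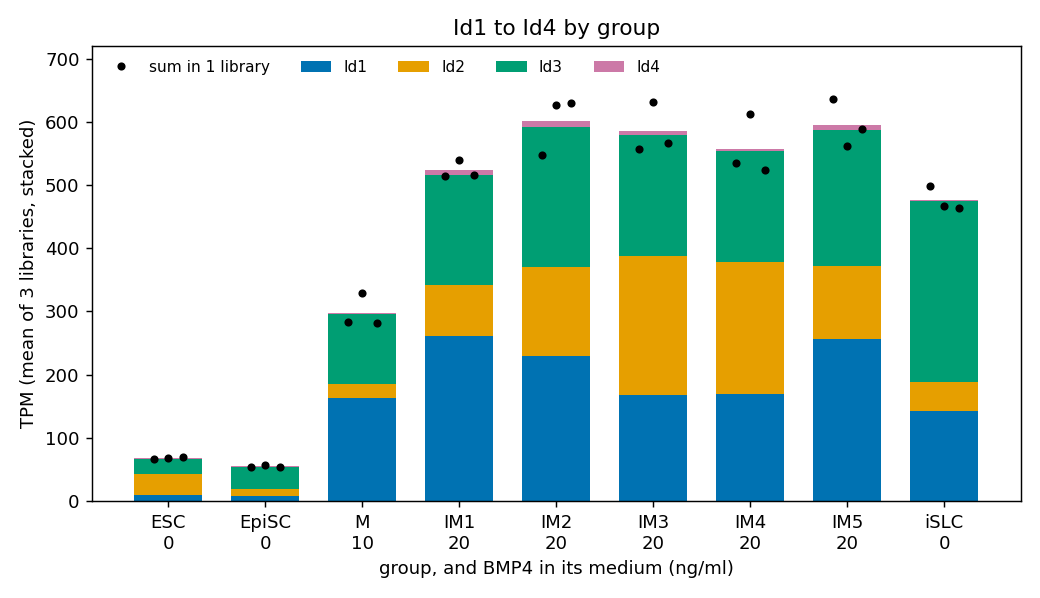
Mean TPM of *Id1* to *Id4*, stacked, in each group (bars, from 0), with the sum in each of the 3 libraries as points and the BMP4 dose under the group name. The sums lie at 523 to 601 in IM1 to IM5, while the *Id2* share is 15.6% in IM1 and 37.9% in IM3, and *Id3* makes up 60.1% of the sum in iSLC.

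*Smad6*, the inhibitory Smad most closely tied to BMP receptors, was at 3.00, 3.16 and 3.83 TPM in ESC and 3.68, 3.58 and 4.18 in EpiSC. It reached 41.5, 35.7 and 36.8 TPM in M, 114, 135 and 137 in IM1, 126, 153 and 146 in IM2 and 135, 130 and 122 in IM5. IM3 (70.7, 72.2 and 58.6) and IM4 (78.4, 74.0 and 53.1) lay below all libraries of those 3 IM groups, and iSLC (29.1, 31.0 and 27.2) below all of M. *Smad7*, which inhibits TGF-β and Activin receptors as well as BMP receptors, started high, at 24.5 to 26.4 TPM in ESC and 22.8 to 24.1 in EpiSC. Its 3 M libraries were far apart, at 31.5, 25.5 and 39.4 TPM, and 1 of them fell within the ESC range. The IM libraries spanned 42.0 to 62.6 TPM, all above M, and iSLC was back at 23.4 to 24.2.

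*Smad9*, a receptor-activated Smad of the BMP branch, was scarce early, at 0.10 to 0.11 TPM in ESC, 0.03 in each EpiSC library and 0.24 to 0.27 in M. It stood at 4.00, 3.85 and 3.87 TPM in IM1, 4.79, 4.80 and 4.71 in IM2 and 3.65, 4.17 and 4.80 in IM5. IM3 held 7.48, 7.84 and 7.03 TPM and IM4 6.13, 7.14 and 6.94. Its order over the groups was that of *Id2* within the IM groups, with IM3 and IM4 on top, and the correlation of the pair over the 9 group means was 0.94. *Bambi* was at 2.04 to 2.18 TPM in ESC, 2.96 to 3.21 in EpiSC, 22.9 to 24 in M and 53.0 to 79.1 in the IM libraries. IM3 (72.3, 75.7 and 74.4) and IM4 (72.8, 79.1 and 77.3) overlapped at the top, and iSLC kept 33.03, 32.9 and 31.2 TPM, above M.

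The Msx genes were highest in M, where *Msx1* was at 152, 172 and 154 TPM and *Msx2* at 101, 93.6 and 99.6. *Msx1* had come up from 0.30, 0.67 and 0.56 TPM in ESC and 4.95, 5.73 and 4.93 in EpiSC, and *Msx2* from 2.65, 3.14 and 2.97 in ESC and 2.09, 1.67 and 1.82 in EpiSC. The pair thus differed in EpiSC, where *Msx1* was above its ESC level and *Msx2* below. In IM1 they stood at 111, 125 and 123 TPM (*Msx1*) and 51.2, 44.6 and 45.0 TPM (*Msx2*), in IM5 at 101, 89.6 and 101 and at 55.6, 52.3 and 46.0, and in IM2 at 55.7, 63.7 and 61.8 and at 41.1, 35.1 and 38.8. In IM4 they stood at 58.0, 69.8 and 66.6 and at 24.3, 23.3 and 22.9, and in IM3 at 50.8, 53.8 and 54.1 and at 19.7, 19.0 and 18.9. *Msx2* was thus lower in IM4 and IM3 than in IM2, while the *Msx1* libraries of IM4 and IM2 overlapped and IM3 was the lowest IM group for both genes. In iSLC *Msx1* was at 1.41, 0.94 and 1.06 TPM and *Msx2* at 1.33, 1.58 and 1.11, below every EpiSC library of the same gene.

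The step from EpiSC to M added BMP4 at 10 ng/ml and asks which of the 10 genes rose with it. *Msx2*, *Msx1*, *Id1*, *Smad6* and *Bambi* rose by 7.25-fold to 50.2-fold, and *Id3* by 2.97-fold. A gene is called DE here if its adjusted p is 0.01 or less, its fold change 2 or more, and its mean normalized count 100 or more both in the series and in a compared group, and 6 of 10 members were DE, all higher, where 6.79% of all genes tested were DE and higher. The log2 fold change was 5.65 ± 0.11 (SE, adjusted p = 1.45e-24, edgeR quasi-likelihood test) for *Msx2*, 4.87 ± 0.12 for *Msx1*, 4.37 ± 0.14 for *Id1*, 3.26 ± 0.13 for *Smad6*, 2.86 ± 0.073 for *Bambi* and 1.57 ± 0.11 for *Id3* (adjusted p = 1.27e-12). *Smad9* differed by 2.91 ± 0.21 but stayed under the count minimum, with mean normalized counts of 51.0 and 6.64. *Id2* (0.83 ± 0.075) and *Id4* (0.74 ± 0.17) had an adjusted p under 0.01 at folds under 2, and *Smad7* differed by 0.07 ± 0.082 (adjusted p = 0.435).

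Other genes of the pathway moved at the same step. Of 10 BMP ligand genes 6 were DE and higher, with *Bmp5* first (log2 fold change 6.93) and *Bmp4* itself at 5.35 ± 0.098, and of 9 other BMP response genes 5 were DE and higher, with the trophoblast and heart factor *Hand1* first (5.52). Of 10 receptor and coreceptor genes 2 were higher and 1 lower, and *Smad1*, which carries the BMP signal, was higher by 1.94. The secreted antagonists split, with 3 of the 9 tested higher, led by *Bmper* (7.11), and 3 lower, led by *Cer1* (-6.38). Of 6 Activin and Nodal response genes 5 were lower, with *Lefty1* at -6.48 ± 0.13. The Activin A of the EpiSC medium was absent in M. The median log2 fold change was 2.89 over the 10 members, 1.22 over the ligands, 2.65 over the other response genes and -0.06 over all genes tested.

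The step before it, from ESC to EpiSC, had no BMP4 in either medium. *Msx1* was DE and higher in EpiSC (log2 fold change 3.28 ± 0.20, adjusted p = 1.41e-13) and *Id2* DE and lower (-1.47 ± 0.073, adjusted p = 3.19e-15), so 1 of 10 members was DE in each direction, where 3.75% of all genes were DE and higher and 4.32% DE and lower. *Smad9* differed by -1.74 ± 0.25 at mean normalized counts of 22.3 in ESC and 6.64 in EpiSC. Of the 9 other BMP response genes 5 were DE and lower in EpiSC, with *Tbx3* first (-4.71), and *Bmp2* was the 1 ligand that was DE (4.01 ± 0.13, higher). Of the 9 secreted BMP antagonists tested 4 were DE and higher in EpiSC and 0 lower, led by *Cer1* (8.44).

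From M to IM1, BMP4 went from 10 to 20 ng/ml, bFGF fell and LY294002 was left out. The later genes came up here, and of 10 members 5 were DE and higher and 1 DE and lower, where 9.72% of all genes were DE and higher and 5.94% DE and lower. The log2 fold change was 3.85 ± 0.10 for *Smad9* (adjusted p = 1.78e-21), 2.22 ± 0.15 for *Id4*, 1.82 ± 0.069 for *Id2*, 1.66 ± 0.11 for *Smad6* and 1.16 ± 0.065 for *Bambi*. *Msx2* was lower by 2.23-fold (-1.16 ± 0.080, adjusted p = 8.75e-13). *Smad7* (0.85), *Id1* (0.60), *Id3* (0.54) and *Msx1* (-0.51) passed the p threshold at folds under 2. Averaged over IM1 to IM5 against M, 5 members were DE and higher and 2, *Msx1* (-1.22 ± 0.069) and *Msx2* (-1.69 ± 0.056), DE and lower, against 9.78% and 5.49% of all genes. The IM average thus had lower levels of the Msx genes and higher levels of 5 other members than M. In IM1, the IM group without retinoic acid, *Msx1* was not DE (-0.51). BMP4 dose, bFGF, LY294002, time and the retinoic acid of IM2 to IM5 cannot be told apart here. M and IM1 also lie in different sets of libraries by red blood cell sums. Of 10 BMP ligand genes 1, *Bmp6*, was DE and higher in IM1 than in M (1.43). Another 2 were DE and lower, led by *Bmp4* (-1.48 ± 0.078). Of the 9 other BMP response genes 5 were DE and higher there and 0 lower, led by *Atoh8* (4.18). Endothelial and cardiac genes moved at this step as well. Summed cardiac markers went from 8.17 to 10.3 TPM in M to 85.7 to 108 in IM1, with 3 of 4 DE and higher. *Cdh5*, which defines endothelium, went from 0.23 to 0.34 TPM in M to 38.9 to 44.2 in IM1. The summed TPM of 4 endothelial markers went from 51.9 to 64.6 in M to 120 to 132 in IM1. Of these 4 markers 3 were DE and higher. *Kdr*, which made up most of the sum in M (50.9 to 63.1 TPM), went the other way. It was at 37.9 to 39.0 TPM in IM1 (-0.71 ± 0.067, not DE). *Smad6* is also known from endothelium, and the part of these cell types in the members' changes was not tested.

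The IM3 medium differs from that of IM1 in retinoic acid, a signal that patterns the mesoderm along the body axis. IM1 belongs to the set of libraries with low red blood cell sums and IM3 to the other. Retinoic acid and this split thus cannot be told apart here. In IM3, *Id2* was higher and *Msx2*, *Msx1* and *Smad6* lower. Of 10 members 1 was DE and higher and 3 DE and lower, where 2.62% of all genes were DE and higher and 3.72% DE and lower. The log2 fold change was 1.33 ± 0.064 for *Id2* (adjusted p = 2.18e-15), -1.38 ± 0.085 for *Msx2*, -1.27 ± 0.099 for *Msx1* and -1.03 ± 0.11 for *Smad6* (adjusted p = 1.72e-08). The call for *Smad6* lay at the fold threshold and ended under the GC adjustment (-0.65), under limma (-0.93) and without IM1 replicate 2 or 3 or IM3 replicate 3 (-1.0, -0.98 and -0.95). *Smad9* (0.85) and *Bambi* (0.32) passed the p threshold upward and *Id1* (-0.75), *Id4* (-0.71) and *Smad7* (-0.65) downward, all at folds under 2, and *Id3* differed by 0.05 ± 0.10 (adjusted p = 0.745). The ligand gene *Bmp2* fell by 3.00 ± 0.071 on the log2 scale and *Bmp4* by 1.01 ± 0.080, *Gdf6* rose by 2.63, and 3 of the 9 other BMP response genes were DE and lower, led by *Hand1* (-1.63), and 1, *Hey1*, was DE and higher (1.06). Summed endothelial markers were at 62.4 to 73.8 TPM in IM3 against 120 to 132 in IM1, and cardiac markers at 177 to 373 against 85.7 to 108. Of 4 endothelial markers 3 were DE and lower, while *Tek* was higher (0.51 ± 0.075, not DE). Of 4 cardiac markers 3 were DE and higher, while *Nkx2-5* was lower (-1.29 ± 0.27, not DE). Their part was not tested.

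Activin A was added on top of retinoic acid in IM2, to be compared with IM3, and in IM5, to be compared with IM4, where CHIR99021 was present too. *Msx2* was higher in both cases, by 2.05-fold and 2.28-fold. Of 10 members 2 were DE and higher in IM2 than in IM3, *Smad6* (1.11 ± 0.11, adjusted p = 1.02e-08) and *Msx2* (1.03 ± 0.085, adjusted p = 2.29e-10), against 2.46% of all genes. In IM5 against IM4 the 2 that were DE and higher were *Msx2* (1.19 ± 0.083, adjusted p = 9.28e-12) and *Id4* (1.17 ± 0.14, adjusted p = 7.83e-08), against 2.63% of all genes, and *Smad6* stayed just under the fold at 0.97 ± 0.11. The 10 members had the same sign in both comparisons, which share no library, as did 80.8% of all genes tested. *Id2* (-0.61 and -0.79), *Smad9* (-0.62 and -0.64) and *Bambi* (-0.13 and -0.27) were the members lower with Activin A, and *Bambi* did not pass the p threshold in IM2 (adjusted p = 0.0926). IM2 and IM5 belong to the set of libraries with low red blood cell sums and IM3 and IM4 to the other, so Activin A and this split cannot be told apart. Under the GC adjustment the value of *Smad6* in IM2 against IM3 was 0.78 and its call was lost. The call for *Msx2* in that comparison was lost under limma (0.96) and without IM2 replicate 1 (0.99). In IM5 against IM4 the call for *Id4* was lost under limma (0.95). Of the 6 Activin and Nodal response genes 3 were DE and higher in each comparison, with *Lefty1* higher by 5.18 ± 0.22 in IM2 and 4.90 ± 0.18 in IM5 and the Activin antagonist *Fst* by 2.69 ± 0.16 and 2.71 ± 0.15. The ligand gene *Bmp2* was higher by 1.22 ± 0.071 and 1.49 ± 0.068. Summed cardiac markers were at 57.3 to 87.6 TPM in IM2 against 177 to 373 in IM3, and at 16.0 to 21.3 in IM5 against 77.9 to 109 in IM4, with 3 of 4 DE and lower in each comparison. Of 4 endothelial markers, *Pecam1* was DE and higher in each comparison (1.15 and 1.03). *Tek* was lower in each, by -0.65 (not DE) in IM2 and -1.35 (DE) in IM5. The summed endothelial markers were at 76.5 to 81.3 TPM in IM2 against 62.4 to 73.8 in IM3. In IM5 they were at 68.1 to 72.7 TPM and overlapped IM4 (67.6 to 78.6). The part of these cell types in the members' differences was not tested.

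CHIR99021 went with small differences in the 10 genes. Between IM4 and IM3, 0 of 10 members were DE by edgeR, DESeq2 or limma, and 3 had an unadjusted p under 0.05 by edgeR, where 0.101% of all genes were DE. Those were *Msx1* (0.33 ± 0.099, adjusted p = 0.0895), *Msx2* (0.33 ± 0.086, adjusted p = 0.0407) and *Id4* (-0.36 ± 0.14, adjusted p = 0.262). Between IM5 and IM2, 0 of 10 were DE by edgeR, DESeq2 or limma, against 0.235% of all genes, and 3 had an unadjusted p under 0.05. *Msx1* (0.75 ± 0.098, adjusted p = 9.66e-06) and *Msx2* (0.49 ± 0.081, adjusted p = 0.000207) passed the p threshold there at folds of 1.68 and 1.40, and the third was *Id2* (-0.22 ± 0.063, adjusted p = 0.0325). Both comparisons stay within a set of libraries. In each, 3 of 4 cardiac markers were DE and lower, *Myh6* at -2.17 and -2.81, and 0 of 4 endothelial markers were DE. Their part in the Msx differences was not tested. Whether the effect of CHIR99021 differed with Activin A was tested as an interaction, in which 0 of 10 members were DE by edgeR, DESeq2 or limma, against 0.0336% of all genes. In 2 the unadjusted p was under 0.05, *Msx1* (0.42 ± 0.14, adjusted p = 0.252) and *Id4* (0.53 ± 0.19, adjusted p = 0.29).

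**Figure D3:**
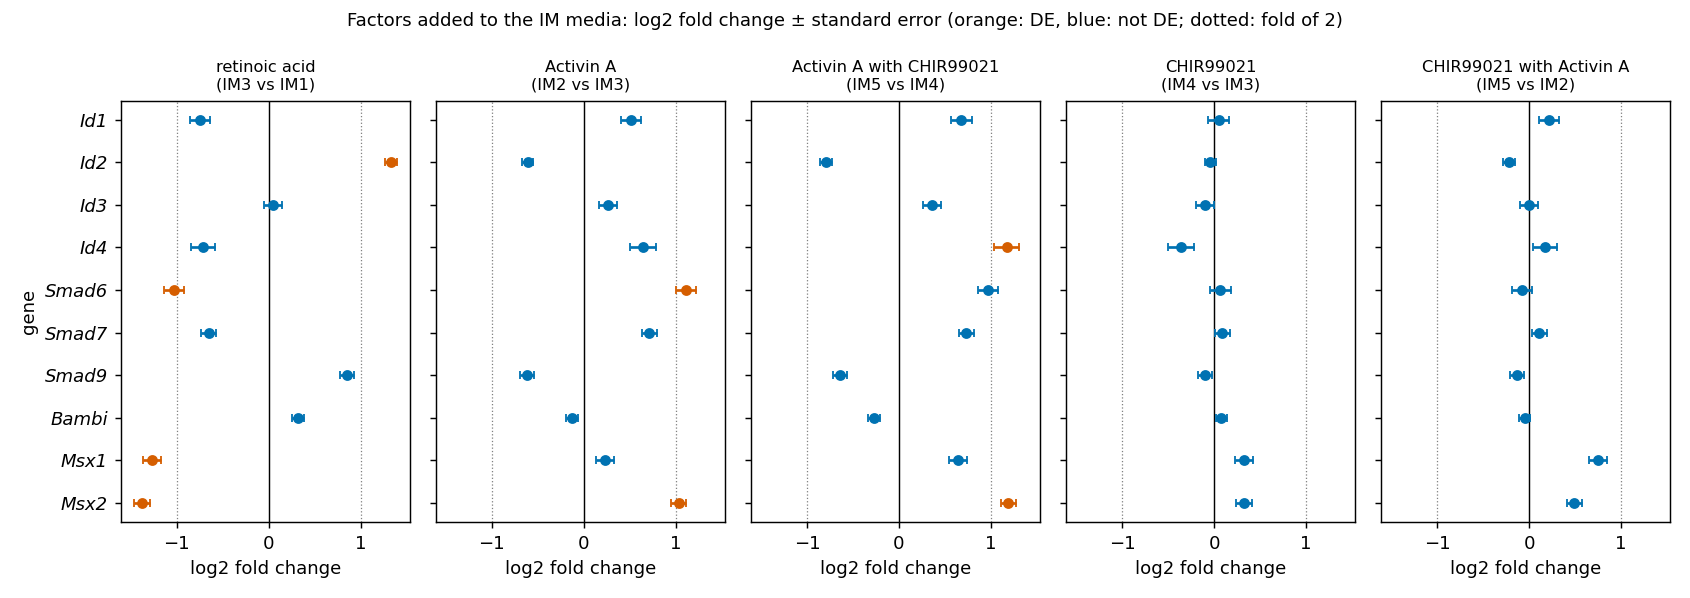
log2 fold change of each gene (edgeR) with its standard error, derived from the F statistic, for the factors added to the IM media. Orange points are DE genes, blue points the others, and dotted lines mark a fold of 2. *Id2* lies at 1.33 with retinoic acid and at -0.61 and -0.79 with Activin A, while *Msx2* lies at -1.38 and at 1.03 and 1.19, and under CHIR99021 the points lie between -0.36 and 0.75.

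The iSLC cells came from IM3 through viral *Nr5a1* and *Dmrt1*, the loss of BMP4, bFGF and retinoic acid from the listed factors, the gain of Activin A and the other Sertoli medium factors, further days and a CFP sort, which cannot be told apart. No group used here held IM3 cells in Sertoli medium without the viruses. IM3 and iSLC also lie in different sets of libraries by red blood cell sums, and this split cannot be told apart from those changes. The Msx genes fell below their EpiSC levels, while *Id3* was higher and *Id1* did not pass the test. By TPM the *Id1* libraries of iSLC lay just below those of IM3. By normalized count they overlapped, at 3476 to 4141 in iSLC and 3985 to 4577 in IM3. Of 10 members 7 were DE, all lower, where 8.92% of all genes were DE and lower. The log2 fold change was -5.50 ± 0.15 for *Msx1* (adjusted p = 9.23e-22), -3.82 ± 0.11 for *Msx2*, -2.36 ± 0.082 for *Smad9*, -2.22 ± 0.067 for *Id2*, -1.25 ± 0.15 for *Id4* (adjusted p = 2.34e-08), -1.19 ± 0.11 for *Smad6* and -1.19 ± 0.064 for *Bambi*. *Id1* differed by -0.18 ± 0.11 (adjusted p = 0.133), *Id3* was 1.51-fold higher (0.59 ± 0.10, adjusted p = 1.30e-05) and *Smad7* lower by 1.26-fold (-0.34 ± 0.082). Under limma the value of *Id4* was -0.98 and its call was lost, which left 6 members DE. The median over the members was -1.22 and that over all genes 0.

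Around these genes, 4 of the 9 other BMP response genes were DE and lower, led by *Hand1* (-5.67), and *Tbx2* was higher by 2.91. The ligand gene *Bmp7* was lower by 2.91 and *Gdf6* higher by 1.22, the Activin antagonist *Fst* was higher by 1.67 ± 0.17, and *Tcf4*, an E protein that Id proteins bind, was higher by 2.05. *Lefty1* was higher by 4.12 ± 0.25. All 4 endothelial markers were DE and lower, and their sum went from 62.4 to 73.8 TPM in IM3 to 3.04 to 4.14 in iSLC. Cardiac markers went from 177 to 373 TPM to 16.6 to 21.4. Their part in the falls was not tested.

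Over the whole series, the 6 groups with BMP4 were set against the 3 without. Of 10 members 9 were DE, all higher with BMP4, where 7.08% of all genes were DE and higher. The log2 fold change was 5.75 ± 0.079 for *Msx1*, 4.27 ± 0.058 for *Msx2*, 4.11 ± 0.068 for *Smad9*, 3.49 ± 0.071 for *Smad6*, 3.14 ± 0.040 for *Bambi*, 3.11 ± 0.070 for *Id1*, 1.91 ± 0.036 for *Id2*, 1.81 ± 0.081 for *Id4* and 1.41 ± 0.057 for *Id3* (adjusted p of 2.72e-28 for *Msx1* and 4.00e-18 for *Id3*). *Smad7* was 1.68-fold higher (0.75 ± 0.042, adjusted p = 4.54e-15), under the fold threshold. The median over the members was 3.13, that over the 9 other BMP response genes 2.10 (8 of 9 DE and higher) and that over all genes 0. This contrast uses the same libraries as the single steps and is not independent of them.

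Library by library, the separation was narrower. In 3 of 10 members, *Smad6*, *Msx1* and *Msx2*, all 18 libraries with BMP4 lay above all 9 without, against 2.37% of all genes tested (by normalized count). *Msx1* ranged from 50.8 to 172 TPM (median 79.7) with BMP4 and from 0.30 to 5.73 (median 1.06) without, and *Msx2* from 18.9 to 101 and from 1.11 to 3.14. *Smad6* ranged from 35.7 to 153 with and from 3.00 to 31.0 without. *Id3* had no library with BMP4 above all those without, since the iSLC libraries lay above them. Without the iSLC libraries 7 members did not overlap, adding *Id1*, *Id3*, *Smad9* and *Bambi*, but then 13% of all genes were higher without overlap. Without M replicate 2 (adding *Smad7*) or without iSLC replicate 1 (adding *Id1*), 4 members did not overlap, by normalized count and by TPM. Without ESC replicate 3 *Smad7* was added by TPM only. Against ESC and EpiSC alone the log2 fold changes were 4.39 ± 0.091 for *Id1*, 2.43 ± 0.073 for *Id3*, 4.29 ± 0.051 for *Bambi* and 5.57 ± 0.089 for *Smad9*, with 9 members DE as before against 11.6% of all genes. Within ESC, M, IM3 and IM4 also 9 members were DE, *Smad7* not (0.57 ± 0.070), against 11% of all genes. Within EpiSC, IM1, IM2, IM5 and iSLC, *Smad7* was DE (1.03 ± 0.054) and *Id3* was not (0.94 ± 0.070), against 6.95%.

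**Figure D4:**
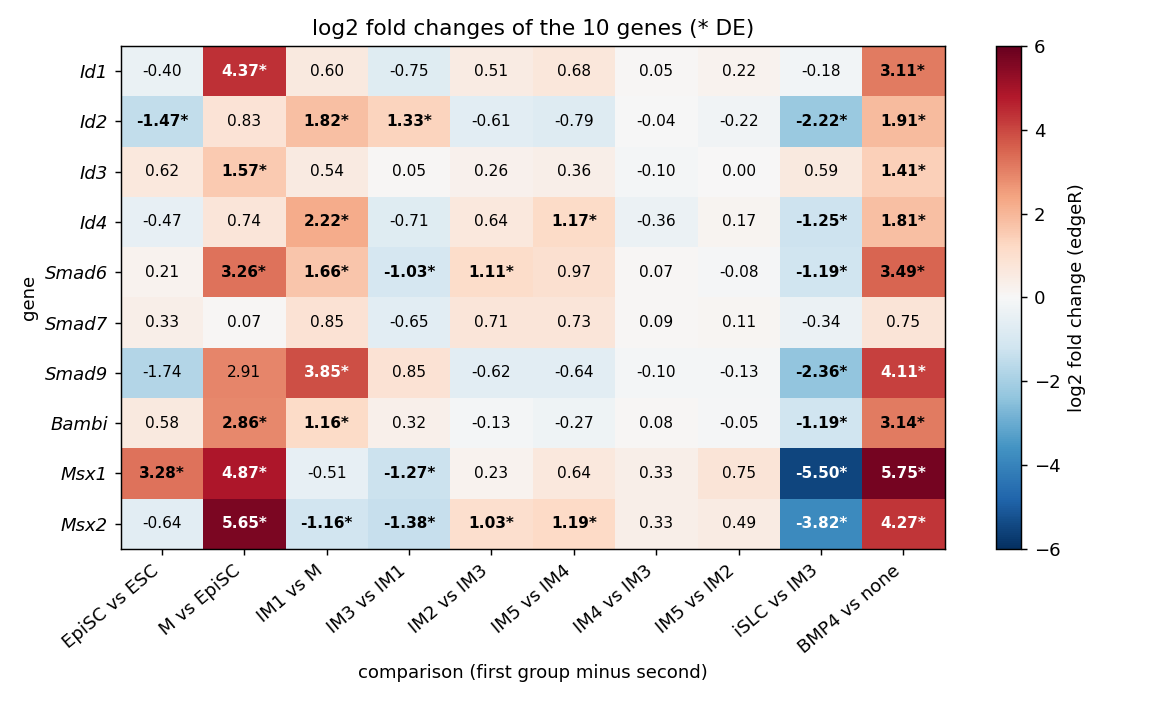
log2 fold change (edgeR, first group minus second) of each gene in 10 comparisons, with colour from blue (lower) to red (higher) and an asterisk and bold type where the gene was DE. The column for M against EpiSC holds values of 4.37 for *Id1* and 5.65 for *Msx2*, the columns for CHIR99021 (IM4 vs IM3 and IM5 vs IM2) hold no asterisk, and 7 of 10 genes are lower and DE in iSLC.

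Among the 13467 genes with a mean normalized count of at least 100, the genes whose group means followed *Id1* most closely (Pearson correlation of log2 CPM over 9 groups) were *Mapkapk2* (0.997), *Unc5c* (0.993) and *Igfbp4* (0.992). *Igfbp4*, which encodes a binding protein of insulin-like growth factors, averaged 16.8 TPM in ESC, 269 in M and 387 in IM1. The closest to *Smad6* were *Nup210l* (0.996), *Elovl1* (0.994) and *Rgs5* (0.993), the last of which averaged 0.22 TPM in ESC, 5.78 in M, 59.0 in IM1, 26.4 in IM3 and 7.16 in iSLC. The closest to *Msx2* were *Nsmce2* (0.989), *Nipsnap3b* (0.98) and *Mcat* (0.97), whose levels varied far less, *Nsmce2* from 46.4 TPM in EpiSC to 88.7 in M. With 9 points and this many genes, high correlations arise readily, and they are given as a description of shared pattern.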

How the data were processed

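Paired-end reads were trimmed by the authors (cutadapt 1.9.1), aligned to GRCm38 with STAR 2.5.2a and quantified with RSEM 1.3.0 (versions from the submitters' processing notes). The expected counts the authors deposited are RSEM's estimates per gene, not normalized between libraries. The TPM and FPKM values they deposited are scaled per effective length (in bases) and library. Whether counting used strand is not given in the sources used here. Gene names came from GENCODE M21, which matched 48349 genes (99.09%).

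Expected counts were rounded to whole numbers and fitted over 27 libraries in 1 edgeR 4.0.16 quasi-likelihood model (R 4.3.3, TMM, filterByExpr, a coefficient per group), with p-values adjusted by the Benjamini-Hochberg method over all 20839 genes tested. DE genes met the thresholds of the study (adjusted p 0.01 or less, fold 2 or more, mean normalized count 100 or more). The standard error (SE) of a log2 fold change was its absolute value divided by the square root of the F statistic of its test. Counts at or under 3 were taken as not detectable. TPM gave levels, and FPKM was an alternative. Alternatives were DESeq2 1.42.0 (size factors or Wald test), an effective length offset, a GC offset, a replicate block, limma 3.58.1 on log2(TPM + 1), no count filter, only the compared groups, no fold minimum and each library left out. Fits were tested on simulated data. The 10 members, the pathway and marker lists, the comparisons and the tests were chosen with earlier results of these data known. Comparison of BMP4 media without iSLC or within sets of libraries was added after the values were seen. Named are all members, the largest DE rise and fall of each list (1 such gene is not reported here), and the 3 genes most like *Id1*, *Smad6* and *Msx2*. *Bmp2*, *Bmp4*, *Fst*, *Lefty1*, *Cdh5* and *Tek* were added after their values were seen where they are not the largest.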

Additional observations from a re-analysis of the deposited data

How the results depend on the processing

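Of 120 pairs of a member and a comparison, 45 were DE, 39 of these remained DE with the same sign under every alternative and library left out, and no sign of a DE pair reversed. Without a fold minimum the count of DE members was 6 for EpiSC against ESC (37.7% of all genes), 10 for IM1 against M (47.7%), 9 for IM3 against IM1 (34.5%), 7 for IM2 against IM3 (26.1%), 10 for IM5 against IM4 (31.8%) and 2 for IM5 against IM2 (3.88%), so which genes are called there depends on the fold. It was 1 for IM2 against IM3 under the GC offset, under the GC offset with the replicate block and under limma, and 1 for IM5 against IM4 under limma. Leaving out 1 library gave 1 to 2 DE members for IM2 against IM3 (1 without IM2 replicate 1), 3 to 4 for IM3 against IM1, 2 to 3 for IM5 against IM4 (3 without IM4 replicate 1 or 2 or IM5 replicate 3) and 3 to 4 members without overlap between media with and without BMP4, which was 7 without the iSLC libraries. Values that changed sign were not DE. *Smad7* in EpiSC against ESC was -0.07 with the length offset and -0.11 under limma (0.33 in the main fit), and *Smad6* there -0.06 with the GC offset, with or without the block (0.21). In IM5 against IM2, *Id3* (0.00) was -0.01 with DESeq2's size factors and its Wald test, 0.00 without the count filter, -0.06 with the GC offset, with or without the block, and -0.05 under limma, and *Bambi* (-0.05) was 0.01 with the GC offset, with or without the block. *Smad7* in the interaction (0.02) was -0.06 with the GC offset, with or without the block. With 1 library left out, *Smad7* in M against EpiSC was -0.01 to 0.17, *Id3* in IM3 against IM1 -0.10 to 0.12, and in IM5 against IM2 *Id3* was -0.09 to 0.07 and *Bambi* -0.12 to 0.03. In IM4 against IM3, *Id1* was -0.08 to 0.15, *Id2* -0.08 to 0.02, *Id3* -0.19 to 0.05 and *Smad6* -0.03 to 0.22. In the interaction, *Id3* was -0.04 to 0.19, *Smad7* -0.04 to 0.10 and *Smad9* -0.11 to 0.03. The cause of these changes was not tested. With the replicate number as a block alone, 6 members were DE between M and EpiSC and 9 between media with and without BMP4, as in the fit without it, and no call changed. The labels do not say what equal numbers share, deviations of same-numbered libraries correlated by 0.0024 on average against -0.0012 for different numbers, and 11 of 27 libraries correlated best with their own number, so no pairing was assumed. On the FPKM scale the order of the groups changed for *Id1*, *Id3* and *Smad7*. *Smad9* and *Id4* rest on few counts in ESC, EpiSC and M, and values there are the least precise.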
